A study of Mus musculus with 12 samples.

Results

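The ribosome footprints of 8 transcripts are described here across heat shock and recovery in mouse embryonic stem cells: uc007pua.1, uc007puz.1, uc007pri.1, uc007prs.1, uc007pus.1, uc007puh.1, uc008qmp.1 and uc008qmn.2. They are 8 of the 61396 transcript IDs in the count tables, 6 from a run of neighbouring uc007p IDs and 2 from a run of neighbouring uc008qm IDs. They were chosen by their ribosome footprint counts, as transcripts whose counts were lost with heat in earlier results of these data. Which libraries entered that choice is not recorded. The wild-type heat shock contrast is taken as the one used and is given as a description, without a test; if libraries of the knockout or of recovery were also looked at, the tests in them are not independent of the choice. The tables give IDs alone, and the mouse gene table used here (RefSeq, GRCm38.p6) matched 0 of them. No gene is named, no sequence or position is shown, and membership in any gene family or cluster was not analysed here.

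Ribosome profiling sequences the short stretches of mRNA that ribosomes protect from nuclease, so the footprint count of a transcript follows the ribosomes sitting on all of its copies. Cells in heat shock generally restrict the translation of most mRNAs while chaperone mRNAs go on being translated, and translation of other mRNAs resumes as the cells recover. METTL14 is the partner of METTL3 in the complex that places N6-methyladenosine on mRNA, a mark that embryonic stem cells carry on many transcripts. Footprints alone were analysed, without mRNA levels, so a loss of ribosomes from each copy and a loss of copies cannot be told apart, nor can fewer cells that express the transcript.

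All cells were V6.5 mouse embryonic stem cells grown with LIF and inhibitors of GSK3 and MEK1, either wild type (WT) or Mettl14 -/- (KO). The labels do not say how many clones stand behind each genotype or whether replicates came from separate dishes. Cells of each genotype were left without heat shock (noHS), held at 42 °C for 30 min (HS), or given the same heat shock and then 1 h at 37 °C (recovery). Each of the 6 groups has 2 libraries, called biological replicates by the submitters. Stem cell identity and the loss of Mettl14 could not be checked against marker genes, because no ID could be named.

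The libraries were shallow and uneven. Between 8569 and 182409 counts per library were assigned to a transcript, which was 1.26% to 8.75% of the reads in the files, and the 8 transcripts held 0 to 649 of them. The 2 transcripts that exceeded 10% of the counts in any library together took 17.6% to 85.6%. Levels are CPM, counts per 1000000 of a library's total over the 618 tested transcripts, after TMM. TMM is a scaling that is meant to offset differences in composition. Tests are edgeR's quasi-likelihood tests in 1 fit of all 12 libraries. The p-values were adjusted by Benjamini-Hochberg across the 618 transcripts that had enough counts for a test, and a call is an adjusted p below 0.05. All 8 members passed this filter on low counts, which they could do through the unheated libraries alone.

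The reads on these transcripts lay on the annotated strand. Over the 12 libraries the 8 members collected 1414 either-strand counts, with 1408 counts on the sense strand and 6 on the antisense strand, a sense share of 99.6%. Totals ran from 56 counts for uc008qmn.2 to 304 for uc007pua.1. The antisense counts sat in uc007pua.1, with 4, and uc007pri.1, with 2, and 3 of the 6 came from KO recovery, where the 8 members had only 9 counts in all. Transcript lengths were not used here, so the levels of different members are not ranked against each other.

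In unheated wild-type cells all 8 transcripts carried footprints, and during heat shock none of the 8 had a single count in either library. The WT noHS libraries held 235 and 649 counts of the 8 members, and the WT HS libraries 0 and 0. WT HS replicate 1 had the most assigned counts of the 12 libraries, but 26207 outside the 2 largest transcripts, fewer than 4 other libraries had. The plot of levels by library shows the same gap for each member.

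**Figure D1:**
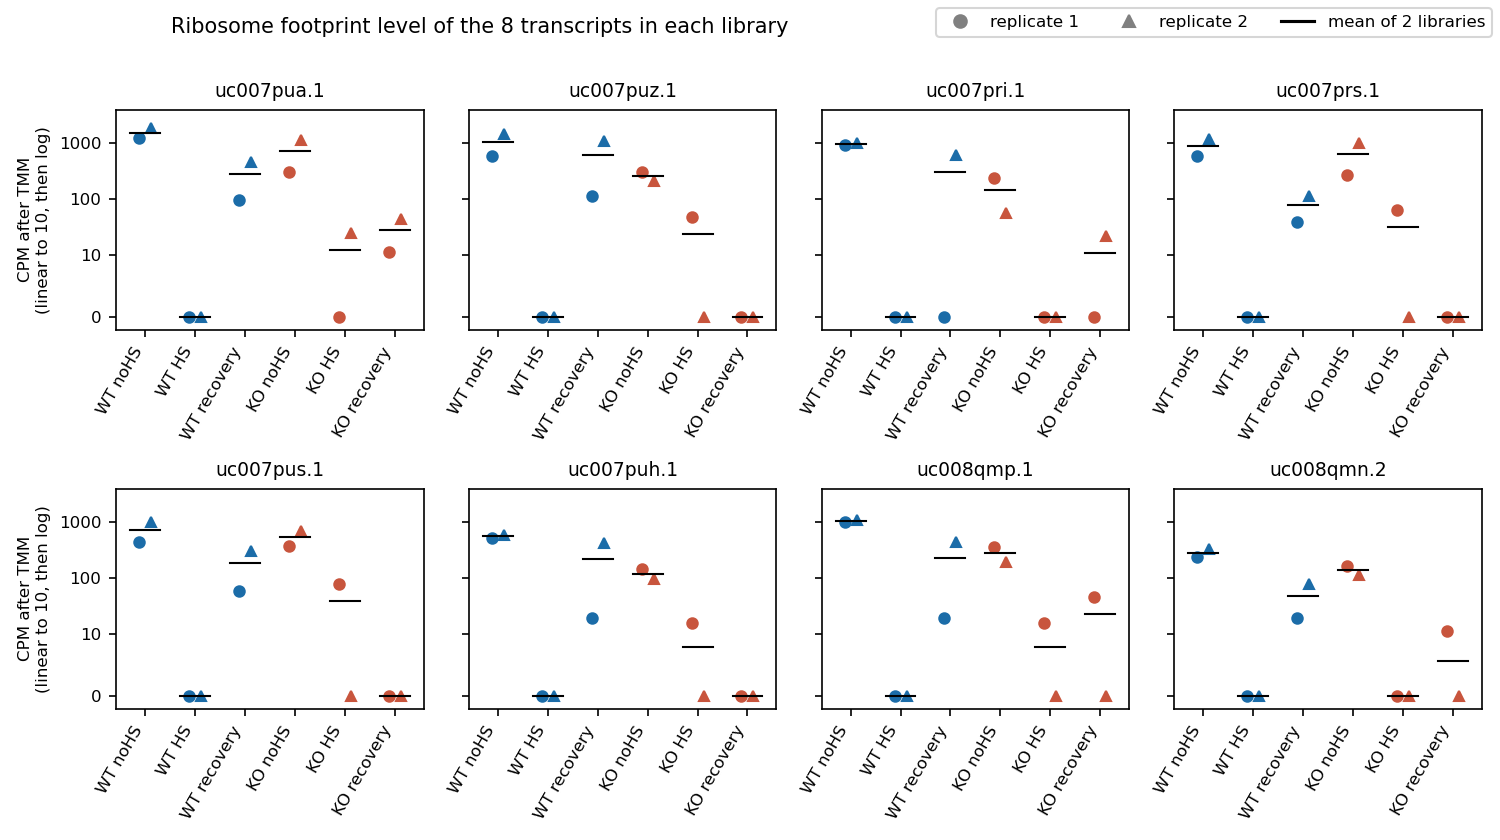
Each panel is one of the 8 transcripts, the x axis gives the 6 groups, and the y axis gives CPM after TMM on a scale that is linear up to 10 and logarithmic above. Circles are replicate 1, triangles replicate 2, black bars the mean of the 2 libraries, blue WT and red KO. All WT HS points lie at 0, and in WT recovery the triangle lies above the circle in every panel.

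The transcript uc007pua.1 had 52 and 142 counts in the WT noHS libraries, 1565 ± 480 CPM (SD, n = 2), and 0 and 0 counts in WT HS. Both unheated libraries therefore lay above both heated ones. Set against a floor of 3 counts over the 2 WT HS libraries, which corresponds to 33.8 CPM, its level was at least 49.1-fold lower under heat shock.

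Both members of the second block were at 0 under heat shock too. Unheated wild-type cells gave 43 and 82 counts of uc008qmp.1, 1057 ± 60.6 CPM (SD, n = 2), and heated ones 0 and 0, at least 31.6-fold lower. For uc008qmn.2, the least counted of the members, the unheated counts were 10 and 25 and the heated counts again 0 and 0, at least 8.86-fold lower. Its smaller bound follows from its smaller count, since every member was at 0 in WT HS.

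For the remaining 5 members, WT noHS counts were 25 and 111 for uc007puz.1, 39 and 76 for uc007pri.1, 25 and 91 for uc007prs.1, 19 and 77 for uc007pus.1, and 22 and 45 for uc007puh.1. Against the same floor their bounds ran from at least 17.0-fold for uc007puh.1 to at least 34.4-fold for uc007puz.1. The unheated replicates were close for uc007pri.1, at 969 ± 70.4 CPM, and further apart for uc007puz.1, at 1039 ± 636 CPM (SD, n = 2 each). All 8 members are among the 60 transcripts called lower in this contrast, which is 9.71% of those tested, with 0% called higher; since this contrast chose the members, nothing is read from that share. With DESeq2 size factors or scaling to all reads, 0 of the 618 were called in it.

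For the sum of the 8 members the WT HS bound was at least 224-fold lower with TMM, at least 258-fold relative to reads in the files and at least 180-fold relative to counts outside the 2 largest transcripts. With 1 WT HS library left out, so that the floor of 3 counts applied to the other alone, the first of these was at least 91.2-fold (without replicate 1) or 133-fold (without replicate 2). The plot of summed counts shows both of the latter scales, beside counts scaled to the assigned total. The WT HS libraries had 182409 and 19538 assigned counts, and levels under the floor were not detectable at these depths.

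**Figure D2:**
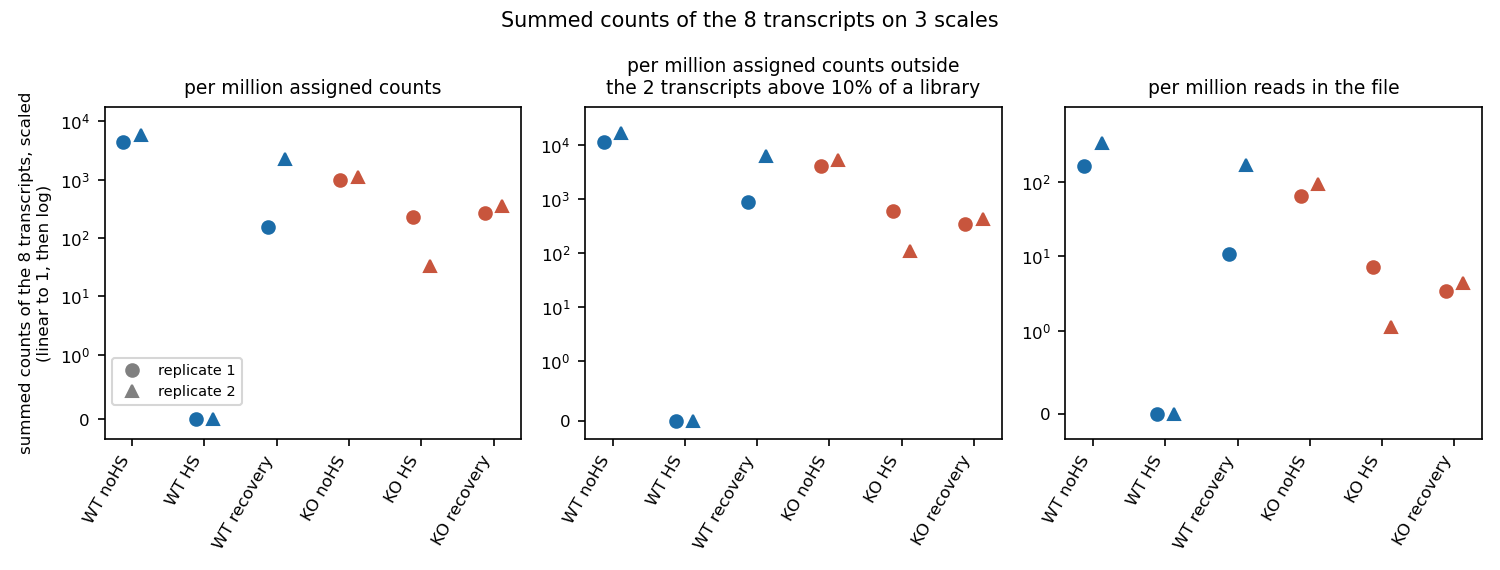
Summed counts of the 8 transcripts in each library, scaled to assigned counts, to assigned counts outside the 2 transcripts above 10% of a library, and to reads in the file, each to a total of 1000000; the y axes are linear to 1 and logarithmic above. Circles are replicate 1, triangles replicate 2, blue WT and red KO. On each scale the WT HS libraries lie at 0, both KO noHS libraries lie above both KO HS and both KO recovery libraries, and the WT recovery libraries lie far apart.

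In Mettl14 -/- cells, whose libraries are not in the contrast taken to have chosen the members, all 8 transcripts were also lower during heat shock, but none passed the threshold. The KO noHS libraries held 120 and 183 counts of the 8 members and the KO HS libraries 14 and 1. Summed over the members, the level was 19.4-fold lower in KO HS (95% counting interval 11.6 to 35.1), 14.9-fold lower relative to reads and 10.2-fold lower relative to counts outside the 2 largest transcripts. Reads copied by amplification are no separate molecules, so intervals and floors account for counting error alone.

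No member was called in KO HS against KO noHS, where the call rate was 0.485% lower and 0% higher over all 618 transcripts. The members' unadjusted p was below 0.05 for all 8, as it was for 126 of all 618, and their edgeR adjusted p-values ran from 0.0894 to 0.243. For each of the 8, both KO HS libraries lay below both KO noHS libraries on all 3 scales. The same held for 45.5% of the 618 tested transcripts after TMM, 36.7% relative to reads and 30.6% relative to counts outside the 2 largest transcripts. The median fitted log2 fold change of the 8 was −4.33, against −0.80 for all 618, so the transcripts as a whole were also lower in KO HS on this scale. With scaling to all reads the medians were −3.98 and −0.43.

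The transcript uc007pua.1 had 17 and 60 counts in KO noHS, 733 ± 596 CPM, and 0 and 1 in KO HS, 12.7 ± 17.9 CPM (SD, n = 2 each). The groups did not overlap, and the ratio was 74.0 (95% counting interval 12.9 to 2959.7, edgeR adjusted p = 0.0894). For uc007prs.1 the KO noHS counts were 15 and 52 and the KO HS counts 4 and 0, a ratio of 16.1 (interval 6.00 to 60.8, edgeR adjusted p = 0.143). All counts of uc007prs.1 in KO HS came from replicate 1.

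The 2 uc008qm members were similar in kind. Unheated KO cells gave 20 and 10 counts of uc008qmp.1 and heated ones 1 and 0, a ratio of 28.8 (interval 4.79 to 1176, edgeR adjusted p = 0.143). For uc008qmn.2, 9 and 6 unheated counts stood against 0 and 0, a level at least 4.80-fold lower with heat (edgeR adjusted p = 0.143). It and uc007pri.1, with 13 and 3 counts against 0 and 0, were the only members without a count in either KO HS library.

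Among the other 3, uc007pus.1 had 21 and 36 counts in KO noHS and 5 and 0 in KO HS, a ratio of 11.0 (interval 4.43 to 35.0). For uc007puz.1 the counts were 17 and 11 against 3 and 0, a ratio of 8.97 (interval 2.77 to 46.1), and for uc007puh.1 they were 8 and 5 against 1 and 0, a ratio of 12.5 (interval 1.88 to 530.8). Of the 15 member counts in KO HS, 14 came from replicate 1, and without that library the ratio of the summed members was 112 (interval 19.9 to 4437) in place of 19.4. Without KO HS replicate 2 it was 12.8 (interval 7.51 to 23.7). The sum was thus lower with either KO HS library left out.

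The count of 0 members called in KO HS with edgeR, beside 8 at an unadjusted p below 0.05, changed when some libraries were left out. It was 6 of 8 without WT recovery replicate 1 and also without WT recovery replicate 2, where 5.87% and 8.34% of all transcripts were called. It also moved above 0 without either WT HS library, KO noHS replicate 1 or KO recovery replicate 1, each of which left 1 library in a group. In the DESeq2 Wald test, 2 of the 5 members given an adjusted p were called (uc007pua.1 and uc007prs.1), beside 3.07% of all transcripts. Whether the wild-type and KO responses to heat shock differ was not tested for these transcripts, because the wild-type response chose them.

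**Figure D3:**
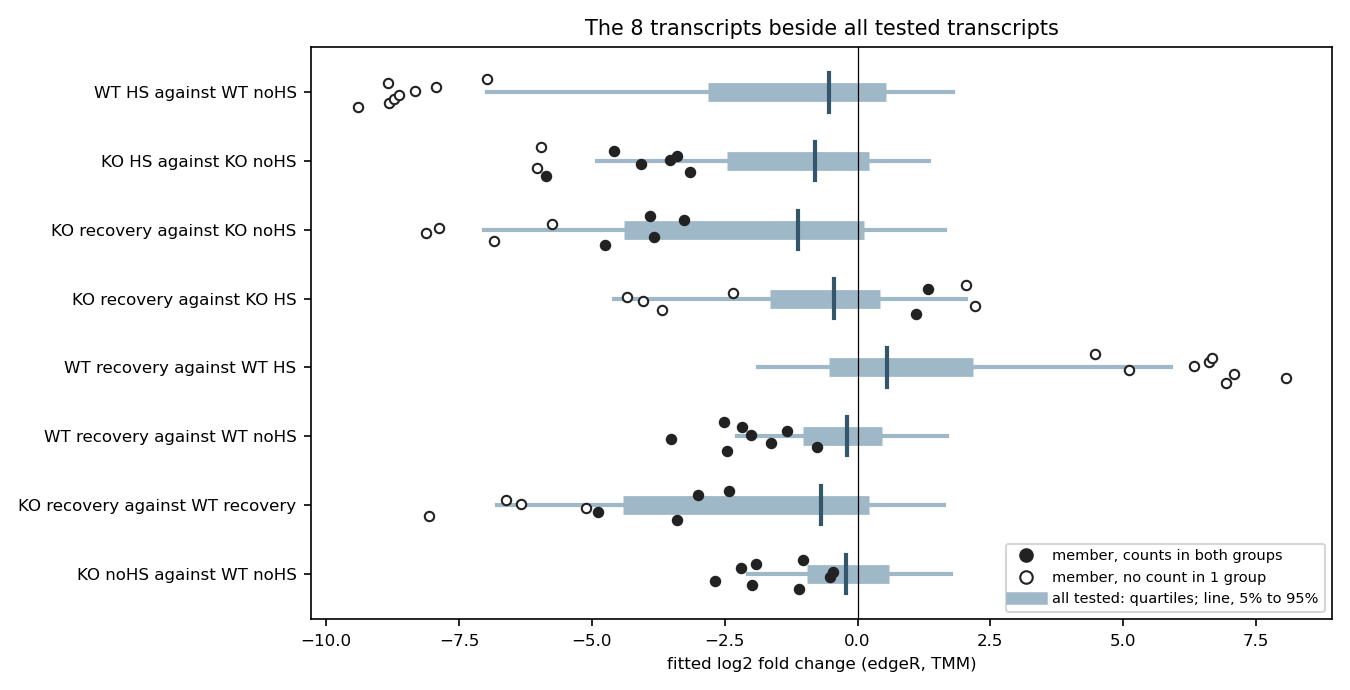
Fitted log2 fold changes (x axis) in 8 comparisons (y axis): points are the 8 transcripts, filled where both groups had counts and open where 1 group had none, for which the fitted value depends on the prior count; small vertical offsets only separate the points. Blue-grey bars give the quartiles of all 618 tested transcripts, thin lines their 5% to 95% range and dark ticks their median. The members lie left of the median of all transcripts in both heat shock comparisons, on both sides of 0 in KO recovery against KO HS, and right of the median in WT recovery against WT HS.

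In wild-type recovery the footprints were seen again, mainly in 1 of the 2 libraries. WT recovery replicate 1 had 19 counts of the 8 members among 125342 assigned, and replicate 2 had 184 among 81002. These were 10.6 and 165 per 1000000 reads, against 164 and 332 in WT noHS. Replicate 2 therefore reached the lower of the unheated wild-type libraries on that scale, and replicate 1 did not. On the other scales replicate 2 stayed below that library, WT noHS replicate 1. The summed level was 3579 against 5541 CPM after TMM. Per 1000000 assigned counts it was 2272 against 4433, and outside the 2 largest transcripts 6251 against 11700.

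The gap between the replicates ran in the same direction for all 8 members. After TMM scaling, replicate 2 had 9.67 times the summed level of replicate 1 (95% counting interval 6.02 to 16.4), and 15.6 times relative to reads. The transcript uc007puz.1 had 6 and 57 counts in WT recovery, uc008qmp.1 had 1 and 23, uc007puh.1 had 1 and 22, and uc007pri.1 had 0 and 32. The smallest gaps in counts were those of uc008qmn.2, with 1 and 4, and uc007prs.1, with 2 and 6. Levels in this group are accordingly spread, for example 613 ± 701 CPM for uc007puz.1 and 282 ± 261 CPM for uc007pua.1 (SD, n = 2 each).

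Against WT HS, which had 0 counts, every member had more counts in WT recovery and none was called, as for all 618 transcripts, of which 0% were called. Bounds ran from at least 1.44-fold higher for uc008qmn.2 to at least 18.2-fold for uc007puz.1. The 0 counts in WT HS are those by which the members were chosen, so any count in recovery puts a member above WT HS, and the direction and the test are not evidence of a rise. In edgeR the unadjusted p was below 0.05 for 8 of the 8 and for 117 of all 618. None of the 8 was called by the DESeq2 Wald test, beside 0.324% of all transcripts. In edgeR, calls of members as higher appeared without WT recovery replicate 1, KO noHS replicate 1, KO noHS replicate 2 or KO HS replicate 1. The first of these had the most member calls and also the highest call rate over all transcripts. Each of these fits left 1 library in a group. The bound for the sum was 106-fold without WT recovery replicate 1 and 11.0-fold without replicate 2.

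Against WT noHS, the 8 members were lower in recovery by ratios of 1.90 for uc007puz.1 to 12.7 for uc007prs.1, and none was called, with a call rate of 0% over all transcripts. The smallest edgeR adjusted p of a member was 0.689, and 3 members had an unadjusted p below 0.05, as had 27 of all 618, while the DESeq2 Wald test called 0. This comparison shares WT noHS with the contrast that chose the members. The transcript uc007prs.1 had 25 and 91 unheated counts and 2 and 6 in WT recovery, and was low in both recovery libraries. For uc007puz.1 the higher recovery library, at 1109 CPM, lay between the 2 unheated libraries at 589 and 1489 CPM. The sum of the 8 was 3.82-fold lower than in WT noHS (interval 3.28 to 4.48), 20.4-fold without WT recovery replicate 2 and 2.11-fold without replicate 1.

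In KO recovery the 8 transcripts had few counts or none. The KO recovery libraries held 6 and 3 counts of the members, against 120 and 183 in KO noHS. These were also the libraries with the lowest assigned share of reads, 1.26% ± 0.0033 (SD, n = 2), and KO recovery replicate 2 was the shallowest of the study with 8569 assigned counts. TMM factors were 4.68 and 6.63 there and between 0.296 and 2.09 elsewhere. The part of this difference in yield in the members' result was not tested.

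Of the 8 members, 5 fell in KO recovery against KO noHS, where 23.0% of all tested transcripts were called lower and 0% higher (edgeR, adjusted p below 0.05). The 5 were uc007pua.1, uc007puz.1, uc007prs.1, uc007pus.1 and uc007puh.1, all of the uc007p block. The transcript uc007prs.1 had 15 and 52 unheated counts, 637 ± 513 CPM (SD, n = 2), against 0 and 0, a fall of at least 27.7-fold (edgeR adjusted p = 0.00659). For uc007pus.1 the counts were 21 and 36, 538 ± 218 CPM (SD, n = 2), against 0 and 0, a fall of at least 23.6-fold (edgeR adjusted p = 0.00736). For both, the unheated libraries lay well above the recovery libraries. These bounds are after TMM. Relative to reads they were 14.3-fold for uc007prs.1 and 12.2-fold for uc007pus.1. Relative to counts outside the 2 largest transcripts they were 8.57-fold and 7.29-fold.

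The transcript uc007pua.1 had 17 and 60 counts in KO noHS and 1 and 2 in KO recovery, a ratio of 31.8 (interval 10.5 to 158, edgeR adjusted p = 0.0162). Of its 3 recovery counts, 1 in each library was antisense. The transcript uc007puz.1 had 17 and 11 counts and then 0 and 0, at least 11.6-fold lower (edgeR adjusted p = 0.0167). The transcript uc007puh.1 had 8 and 5 counts and then 0 and 0, at least 5.38-fold lower (edgeR adjusted p = 0.0413). Relative to reads the bounds of uc007puz.1 and uc007puh.1 were 5.97-fold and 2.77-fold. Relative to counts outside the 2 largest transcripts they were 3.58-fold and 1.66-fold.

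The members that did not pass were uc007pri.1, with 13 and 3 counts in KO noHS and 0 and 1 in KO recovery (edgeR adjusted p = 0.122), uc008qmp.1, with 20 and 10 against 4 and 0 (edgeR adjusted p = 0.0828), and uc008qmn.2, with 9 and 6 against 1 and 0 (edgeR adjusted p = 0.0526). Their ratios were 19.9 for uc007pri.1 (interval 3.08 to 832.5), 9.31 for uc008qmp.1 (interval 3.28 to 36.4) and 18.6 for uc008qmn.2 (interval 2.86 to 783.5). The single recovery count of uc007pri.1 was antisense. With sense-strand counts, all 8 members were called lower, where the call rate over all transcripts was 40.4%.

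These edgeR calls rested on the scaling and on both recovery libraries. The DESeq2 Wald test called 4 of the 7 members given an adjusted p, beside 16.0% of all transcripts. In an edgeR fit of KO recovery and KO noHS alone, 3 members passed the filter and 1 was called, beside 11.9% of all transcripts. In edgeR with DESeq2 size factors or scaling to all reads, 0 of the 8 were called, beside 2.27% and 2.75% of all transcripts. The calls did not stand without either KO recovery library, with 1 library left in that group. The sum was 42.4-fold lower than in KO noHS without KO recovery replicate 1 and 41.5-fold without replicate 2, after TMM. The count of members called fell without KO noHS replicate 2, and rose without either WT recovery library. It also fell without both libraries under 20000 assigned counts, WT HS replicate 2 and KO recovery replicate 2. Each of these fits left 1 library in a group. The median fitted log2 fold change of the 8 was −5.25 with TMM, against −1.11 for all 618, and −4.57 against −0.16 with scaling to all reads. The sum of the members was 41.8-fold lower with TMM (interval 21.7 to 92.2), 21.5-fold relative to reads (interval 11.2 to 47.6) and 12.9-fold relative to counts outside the 2 largest transcripts (interval 6.71 to 28.5). Relative to all assigned counts, in the units of the plot of summed counts, the gap was smaller. The mean summed level there was 1042 in KO noHS and 308 in KO recovery. The direction was therefore the same on all of these scales and the size was not.

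Between KO HS and KO recovery no difference of the members was detectable at this depth with both libraries of each group. They had 15 counts in KO HS and 9 in KO recovery, a ratio of 2.15 for the sum with an interval of 0.882 to 5.58, and 1.44 relative to reads. Without KO HS replicate 1 the order turned, with KO recovery 2.68-fold above KO HS (interval 0.371 to 117.5), and without KO HS replicate 2 the ratio was 3.26 (interval 1.32 to 8.55). None was called, against 1.29% of all transcripts called lower and 0% higher, and the smallest edgeR adjusted p of a member was 0.391. The unadjusted p in edgeR was below 0.05 for 1 member (73 of all 618). The DESeq2 Wald test called 0 members, beside 1.78% of all transcripts. Fitted values were below 0 for 4 members and above 0 for the other 4, and for all 8 the libraries of the groups overlapped.

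Recovery was also compared directly between the genotypes. The 4 libraries compared are outside the contrast taken to have chosen the members, but the filter on low counts drew on all groups. In a fit of the compared groups alone, only 1 member passed that filter and 0 were called, beside 9.81% of all transcripts. The other members entered this test only with libraries of other groups in the filter, among them WT noHS. The 8 members held 19 and 184 counts in WT recovery and 6 and 3 in KO recovery. Of the 8, 4 were called lower in the KO: uc007puz.1, uc007pri.1, uc007pus.1 and uc007puh.1, where 24.4% of all transcripts were called lower and 0% higher (edgeR, adjusted p below 0.05).

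The transcript uc007puz.1 had 6 and 57 counts in WT recovery and 0 and 0 in KO recovery, at least 27.0-fold lower in the KO (edgeR adjusted p = 0.00918). The transcripts uc007pus.1, with 3 and 16 counts against 0 and 0, and uc007puh.1, with 1 and 22 against 0 and 0, were at least 8.15-fold and 9.87-fold lower (edgeR adjusted p = 0.0232 for both). Relative to counts outside the 2 largest transcripts, the bounds of uc007puz.1, uc007pus.1 and uc007puh.1 were 10.2-fold, 3.06-fold and 3.71-fold. The transcript uc007pri.1 was at the threshold, with an edgeR adjusted p of 0.0499, and its 32 wild-type counts all came from replicate 2; its ratio was 41.2 (interval 6.88 to 1677). For 6 of the 8 members the genotypes did not overlap after TMM, and for 4 of the 8 they did not overlap relative to reads. Over all 618 transcripts, both KO recovery libraries lay below both WT recovery libraries for 39.8% after TMM and 29.3% relative to reads. They lay above for 9.39% and 21.5%. Relative to counts outside the 2 largest transcripts, 4 of the 8 members did not overlap, all lower in the KO. On that scale the KO recovery libraries lay below for 25.2% of the 618 and above for 35.4%.

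The remaining members were lower in KO recovery by ratios that did not pass: 12.4 for uc007pua.1 (interval 3.86 to 63.8, edgeR adjusted p = 0.0520), at least 3.43 for uc007prs.1 (edgeR adjusted p = 0.0528), 7.72 for uc008qmp.1 (interval 2.65 to 30.6, edgeR adjusted p = 0.108) and 6.44 for uc008qmn.2 (interval 0.720 to 304.4, edgeR adjusted p = 0.311). The bound of uc007prs.1 was 1.29 relative to counts outside the 2 largest transcripts. With sense-strand counts 6 members were called, against a call rate of 37.8%. The DESeq2 Wald test called 3 of the 7 members given an adjusted p, beside 18.4% of all transcripts. The edgeR count of 4 became 1 with scaling to all reads and 0 with DESeq2 size factors, beside 5.34% and 0.971% of all transcripts. It rose without WT recovery replicate 1. It fell without WT recovery replicate 2, WT noHS replicate 2 or either KO recovery library. Each of these fits without a library left 1 library in a group. The difference in yield described for the KO recovery libraries applies here too. For the sum of the members the ratio was 29.0 (interval 15.0 to 64.4), 52.6 without WT recovery replicate 1 and 5.44 (interval 2.35 to 13.7) without WT recovery replicate 2. It was 19.0 relative to reads and 10.9 (interval 5.63 to 24.2) relative to counts outside the 2 largest transcripts. Relative to all assigned counts, in the units of the plot of summed counts, the genotypes overlapped. The WT recovery libraries were at 152 and 2272 there and the KO recovery libraries at 267 and 350. WT recovery replicate 1 thus lay below both KO recovery libraries on that scale. A difference between WT and KO cells in the step from noHS to recovery was tested as an interaction in edgeR, which includes the WT noHS libraries of the contrast taken to have chosen the members. No member passed (lowest edgeR adjusted p = 0.108, for uc007puz.1, with 3 members at an unadjusted p below 0.05), while 36 of all 618 transcripts did. No such test is given from HS, since the WT HS counts of 0 chose the members.

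Without heat shock, all 8 members had lower pooled levels in KO than in WT cells, by ratios of 1.54 for uc007pus.1 to 6.55 for uc007pri.1. For uc007prs.1 and uc007pus.1 the direction turned without WT noHS replicate 2 (log2 0.36 and 0.51), without KO noHS replicate 1 (0.32 and 0.072) and in a fit of these groups alone (0.064 and 0.084). None was called, with a call rate of 0% over all 618 transcripts. No member had an unadjusted p below 0.05, which 18 of all 618 had, and the smallest edgeR adjusted p was 0.945. The sum was 2.66-fold lower in KO noHS (interval 2.33 to 3.04) and 3.30-fold relative to reads. The DESeq2 Wald test called 0 as well. The WT noHS libraries also belong to the contrast that chose the members. For 6 of the 8 the libraries of the genotypes did not overlap, the exceptions being uc007prs.1 and uc007pus.1. Both KO noHS libraries lay below both WT noHS libraries for 173 of all 618 transcripts.

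The mean level was highest in WT noHS for all 8 and was 0 in WT HS for all 8. For uc007puz.1, uc007pri.1 and uc007puh.1, WT recovery stood second at 613, 311 and 224 CPM, above KO noHS at 261, 148 and 121 CPM, with overlapping libraries. For uc007pua.1, uc007prs.1, uc007pus.1, uc008qmp.1 and uc008qmn.2, KO noHS stood second, for example at 637 ± 513 CPM against 77.8 ± 55.0 CPM in WT recovery for uc007prs.1 (SD, n = 2 each). After TMM the libraries of these groups did not overlap for uc007prs.1, uc007pus.1 and uc008qmn.2. The share over all tested transcripts was not computed for this pair of groups, so nothing is read from that. WT HS, KO HS and KO recovery were the 3 lowest groups in every member, and KO HS and KO recovery overlapped.

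Replicates of 1 group differed by unlike amounts from member to member. In KO noHS, replicate 2 had 3.71 times the level of replicate 1 for uc007pua.1 (95% counting interval 2.14 to 6.78) and 3.64 times for uc007prs.1 (interval 2.02 to 6.97). In the same libraries the ratio was 0.243 for uc007pri.1 (interval 0.0443 to 0.883) and 0.526 for uc008qmp.1 (interval 0.220 to 1.18). In WT noHS it ran from 1.08 for uc008qmp.1 to 2.53 for uc007puz.1. For uc007pus.1 it was 1.80 in KO noHS (interval 1.02 to 3.25). After TMM the unheated KO libraries were thus ordered one way for uc007pua.1, uc007prs.1 and uc007pus.1 and the other way for uc007pri.1, with counting intervals that leave out 1. Relative to reads the interval of uc007pus.1 included 1 (ratio 1.63, interval 0.928 to 2.95).

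Across the 12 libraries, the log2 CPM of each member had a Pearson correlation of 0.914 (uc007prs.1) to 0.971 (uc008qmp.1) with the mean of the other 7. This describes rows that were chosen for a shared loss in heat and share libraries and scaling. The 2 tested transcripts outside the members with the most similar pattern were uc007zvz.1, with a correlation of 0.985 to the members' mean over the 12 libraries, and uc007hhv.2, also at 0.985. Neither ID lies in the 2 ID blocks, but the next in order, uc007puc.1 at 0.984, named after its value was seen, lies in the uc007p block.

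The other rows of the uc007p block were also lower in heat. Between uc007pri and uc007puz the tables list 91 rows, 6 members and 85 others, and 25 of the others had at least 10 counts over the 12 libraries. The WT noHS libraries held 242 and 722 counts of the 85 other rows and the WT HS libraries 11 and 18, a ratio of 25.2 (interval 17.5 to 37.9). The KO noHS libraries held 199 and 236 and the KO HS libraries 36 and 2, a ratio of 11.0 (interval 7.89 to 15.8). Of the 25 rows with at least 10 counts, 15 had 0 counts in WT HS, as the members had, and 10 had some.

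Row by row, all 25 others with at least 10 counts had a lower pooled level in WT HS than in WT noHS, and 24 of the 25 in KO HS than in KO noHS. Among the 2707 rows outside both blocks with at least 10 counts, 73.8% were lower in WT HS and 74.5% in KO HS. In both sets a row could reach 10 counts through the unheated libraries alone, so this cut favours rows that are lower in heat. Of the 25, 11 passed the filter for testing, of which 5 were called lower in WT HS and 0 in KO HS. Of the 598 tested rows outside both blocks, 47 and 3 were called lower. Their median fitted log2 fold change was −4.38 in WT HS and −3.79 in KO HS, against −0.44 and −0.74 for the rows outside both blocks. These rows share libraries with the members, neighbouring IDs are not coordinates, and the position of the rows on the genome was not analysed here.

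**Figure D4:**
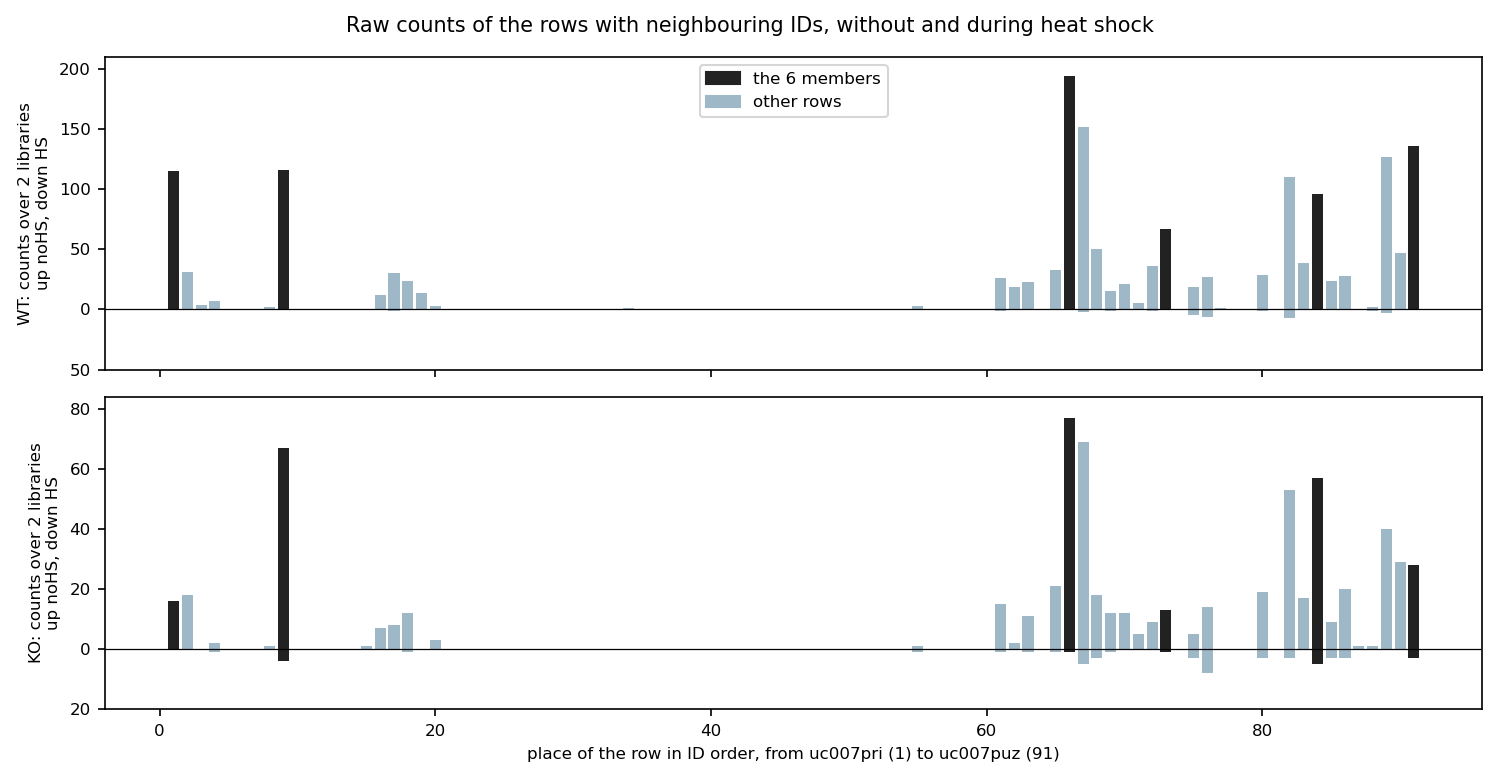
Raw counts summed over 2 libraries for the 91 rows from uc007pri to uc007puz in ID order (x axis), WT above and KO below; bars upwards are noHS and bars downwards HS, both on the same linear count scale within a panel. Dark bars are the 6 members and pale bars the 85 other rows. The members have no downward bar in WT, and nearly all rows with upward bars have short downward bars or none.

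The 85 other rows were also lower in recovery than without heat shock. They held 40 and 210 counts in WT recovery, again lower in replicate 1, and 13 and 1 in KO recovery. Relative to noHS the pooled level was 3.39-fold lower in WT recovery (interval 2.94 to 3.91) and 38.6-fold lower in KO recovery (interval 22.7 to 71.1). Of the 11 tested rows, 4 were called lower in KO recovery against KO noHS and 4 in KO recovery against WT recovery, beside the 23.0% and 24.4% over all transcripts.

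The uc008qm block has 26 rows, 2 members and 24 others. Of the others, uc008qmy.1, singled out after its values were seen, held 393 counts and the remaining 23 rows 45. The transcript uc008qmy.1 had 110 counts over the WT noHS libraries, 4 in WT HS and 114 in WT recovery, and 144 in KO noHS, 20 in KO HS and 1 in KO recovery. Its pooled WT recovery level was 1.18 times that of WT noHS (interval 0.900 to 1.55), but its WT recovery libraries were unlike, with 15 and 99 counts against 28 and 82 in WT noHS. Without WT recovery replicate 1 it was 2.05-fold higher in recovery (interval 1.54 to 2.71), and without replicate 2 it was 3.22-fold lower (interval 1.87 to 5.95). The pooled levels of the members uc008qmp.1 and uc008qmn.2 were 4.57-fold and 6.15-fold lower there. In KO recovery it was called lower than in KO noHS and than in WT recovery, and its pooled level was 179-fold below KO noHS (interval 31.6 to 7105). The difference between it and the neighbouring members in WT recovery was not tested.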

How the data were processed

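Ribosome-protected fragments were counted in 12 libraries, 2 in each of 6 groups, assigned from the sample titles. The authors deposited raw counts per transcript ID, in STAR's gene-count layout per the file layout (either-strand, sense and antisense columns). STAR, DESeq2 and mm10 are named in the submitters' processing notes, without versions; the sources used here do not give trimming, alignment settings or the annotation version. Reads that mapped to several places, 25.4% to 28.3% of each file, were not counted, so a transcript with near-identical copies would be undercounted. The unassigned classes stayed out of library sizes.

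Either-strand counts were filtered by filterByExpr (minimum count 10), which left 618 transcripts, scaled by TMM over these, and fitted in edgeR 4.0.16 (R 4.3.3) with 1 term for each group, leaving 6 residual degrees of freedom. The biological coefficient of variation was 64.1%. DESeq2 1.42.0 was an alternative. With 2 libraries a group, p-values measure the spread between these libraries only. Ratios pool counts over a group's libraries, with 95% Clopper-Pearson intervals. A group at 0 was set to a floor of 3 counts over the group. Values given as at least take the other group's count as exact, so they are not confidence limits. Unless another scale is named, ratios and these values are after TMM. The fit was tested on simulated counts, but the outcome is not given here and is not used as support for the calls.

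All 8 members are named; the 2 most similar transcripts were taken by Pearson correlation of log2 CPM (prior count 2). The ID blocks, members and lists were chosen with earlier results of these data known. Histone and stem cell marker lists matched 0 IDs and were not used. Same-numbered replicates were not taken as pairs, since 3 of 15 pairs of groups had a correlation of replicate differences above 0.1.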

Additional observations from a re-analysis of the deposited data

How the results depend on the processing

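With 2 libraries a group, few counts and TMM factors that differ widely, calls of members depended on the processing. No member was called under any alternative in WT recovery against WT noHS, KO recovery against KO HS and KO noHS against WT noHS. For KO HS against KO noHS, 0 members became 2 in the DESeq2 Wald test, beside 3.07% of all transcripts. The count also rose without both libraries under 20000 assigned counts and in some fits without 1 library. For KO recovery against KO noHS, 5 became 0 when edgeR used DESeq2 size factors (2.27% of all transcripts called) or the number of reads as scale (2.75%). It became 3 without the 2 largest transcripts (12.2% of all called), 2 with no filter (0.254%) and 8 with sense-strand counts (40.4%). In a fit of the compared groups alone it was 1 (3 members then tested, 11.9% of all called). The count also fell without both shallow libraries, and leaving out 1 library moved it both ways. For KO recovery against WT recovery, 4 became 0 with DESeq2 size factors and in a fit of the compared groups alone (1 member then tested), and 1 with scaling to all reads, without the 2 largest transcripts, with no filter, without both shallow libraries and with library sizes over all assigned counts (chosen after seeing the data); leaving out 1 library gave 0 to 7. In that comparison, 0.971% of all transcripts were called with DESeq2 size factors and 9.81% in the fit of the compared groups alone. The share was 5.34% with scaling to all reads and 11.5% without the 2 largest transcripts. It was 0.185% with no filter and 10.0% with library sizes over all assigned counts. For WT recovery against WT HS, leaving out 1 library moved the count above 0 in some fits. In fits of the compared groups alone, no member could be tested in KO recovery against KO HS or in WT recovery against WT HS. In the replicate block fit, 4 members were called in KO recovery against KO noHS in place of 5 (13.4% of all transcripts called). In KO recovery against WT recovery 1 was called in place of 4 (8.09%), and 0 in the other comparisons. Of 15 pairs of groups, 3 had a correlation of replicate differences above 0.1 (range −0.25 to 0.38), so the numbers were not taken to pair the libraries. Counts over all transcripts moved as well: 142 lower in KO recovery against KO noHS became 14 with DESeq2 size factors and 99 in the DESeq2 Wald test (0 to 256 without 1 library), 151 in KO recovery against WT recovery became 6 and 114 (0 to 251), 8 in KO recovery against KO HS became 0 and 11 (0 to 17), and 3 in KO HS against KO noHS became 0 and 19 (0 to 71).

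The sign of a member's log2 fold change turned in 12 of 1375 refits, all but that of uc007pri.1 in values without a call. In KO recovery against KO HS, uc007pua.1 was −0.72 with sense-strand counts, and uc008qmp.1 ran from −2.45 (without KO recovery replicate 1) to 3.86 over refits without 1 library. In WT recovery against WT noHS, uc007puz.1 ran from −3.11 to 0.21, with 0.12 without WT recovery replicate 1. In KO recovery against WT recovery, without WT recovery replicate 2, uc007pri.1 reached 2.18 (lowest −6.90) and uc008qmp.1 0.45 (lowest −6.42). In KO noHS against WT noHS, uc007prs.1 ran from −1.58 to 0.36 and uc007pus.1 from −0.81 to 0.51, and in a fit of these groups alone they were 0.064 and 0.084. The causes were not tested.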
